A study of Homo sapiens with 4 samples.

Results

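The replacement histone genes that lie outside the histone gene clusters were described in NCI-H929 cells, a human multiple myeloma line, with and without a knockout of BCL7A, a subunit of the BAF (SWI/SNF) chromatin remodelling complexes. The genes were taken by name and number 10 of the 56809 gene rows of the count table, of which 9 are reported here: H2AFZ and H2AFV (histone H2A.Z), H2AFX (H2AX), H2AFY and H2AFY2 (macroH2A), H2AFJ (H2A.J), H3F3A and H3F3B (H3.3), and H1FX (a linker histone). Counts were high enough to test 8 of the 9, all but H2AFY2. Poly(A) RNA had been sequenced from 2 libraries of cells carrying a construct for doxycycline-inducible knockout of BCL7A (KO) and 2 libraries of cells which, per the labels' protocols, carried a control construct, although their titles call them wild type. All 4 libraries came from cells that expressed Cas9, were selected with puromycin for 3 days and were kept in doxycycline at 0.5 ug/ml for 24 h. The labels do not say whether a group was a clone or a pool of transduced cells, or whether its 2 libraries were separate cultures, so p-values measure only how far these libraries spread, which may be technical variation.

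A nucleosome wraps DNA around pairs of the core histones H2A, H2B, H3 and H4, and a linker histone H1 binds where the DNA enters and leaves. The bulk of these proteins is made during DNA replication from clustered genes whose mRNAs end in a stem-loop without a poly(A) tail. Replacement histones are made throughout the cell cycle from single genes with polyadenylated mRNAs, which poly(A) libraries capture, and are placed by dedicated chaperones and remodellers at sites such as promoters, active gene bodies and DNA breaks.

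The KO libraries held 38671744 and 40799624 counts and the control libraries 17567202 and 20153596, and depth therefore cannot be told apart from the group. BCL7A itself had 1.31 and 1.19 CPM in the KO libraries, against 42.9 and 45.7 CPM in the control libraries (CPM, a gene's counts scaled to a common library size). The labels call the cells B lymphocytes. All 8 plasma cell markers rose (summed level 6918 to 6937 CPM in the KO and 4262 to 4288 CPM in the control libraries). The 6 B cell markers summed to 1.85 to 2.54 CPM in the KO and 369 to 378 CPM in the control libraries. All 4 tested B cell markers fell, and CD22 was at 0 in both KO libraries. Of the other marker lists, T and NK cell markers summed to 13.9 to 14.2 CPM in the KO and 26.8 to 27.7 CPM in the control libraries, with CD3D at 0 in all. That sum follows CD3E (13.9 CPM in KO and 23.9 CPM in control). CD8A fell further, with 1 and 2 counts in the KO libraries and 44 and 89 in the control libraries. Myeloid markers summed to 0.623 to 0.883 CPM in the KO and 0.27 to 0.31 CPM in the control libraries, with FCGR3A at 0 in the KO libraries. CSF1R, the only tested myeloid marker, was called higher, with 20 and 14 counts in the KO libraries and 0 in each control library. CD14 was also higher (0.0983 CPM in KO and 0.0259 CPM in control), and LYZ was nearly equal (0.18 CPM in KO and 0.19 CPM in control). Fibroblast markers summed to 0.298 to 0.37 CPM in the KO and 10.3 CPM in each control library, with COL1A2 and COL3A1 at 0 in the KO libraries. Epithelial markers summed to 7.75 to 7.93 CPM in the KO and 62.9 to 65.9 CPM in the control libraries, with EPCAM at 0 in the KO libraries. Within that list KRT8 fell and KRT18 rose (6.49 CPM in KO and 1.93 CPM in control), so the sum follows EPCAM. The part of these differences in the results below was not tested.

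The comparison of KO with control cells asks how the expression of the replacement histones differed when BCL7A was lost. H2AFZ, H2AFY, H3F3A, H3F3B and H1FX rose, and H2AFV, H2AFX and H2AFJ fell (edgeR's quasi-likelihood test, Benjamini-Hochberg adjusted p under 0.05 over all 17885 tested genes). The call of H2AFX and that of H1FX depend on the processing, as given with each gene. Thus 5 of the 8 tested genes were higher and 3 lower. The threshold was passed by 76.2% of all genes tested (36.4% higher, 39.8% lower), so a call is not particular to these genes. Of the 4377 tested genes that averaged 50 CPM or more, 90.8% passed, 67.6% higher and 23.2% lower. The median log2 fold change (KO over control) of the 8 tested genes was 0.36, against -0.06 over all tested genes and 0.35 over those that averaged 50 CPM or more. Changes of at least 2-fold were confined, among the 8, to H2AFV and H2AFJ, of which H2AFJ fell short of 2-fold without KO replicate 1 (log2 fold change -0.99) and with no filter (-0.95). Both fell, and 23.5% of all tested genes were called and at least 2-fold lower. None of the 8 rose 2-fold, which 9.47% of all tested genes did. In bulk RNA a smaller amount per cell and a smaller share of expressing cells cannot be told apart.

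**Figure D1:**
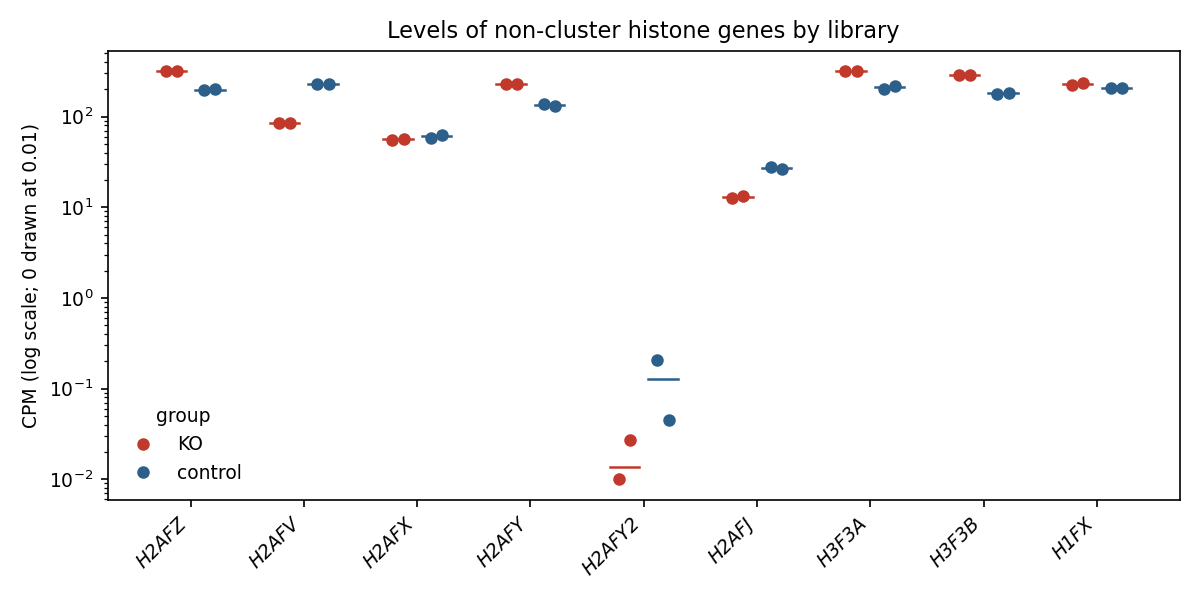
Level of each of the 9 genes in each library, in CPM on a log axis, with KO libraries (red) left of control libraries (blue); points are libraries, short lines are group means, and 0 is drawn at 0.01. H2AFV and H2AFJ sit lower in KO, H2AFZ, H2AFY, H3F3A and H3F3B higher, and H2AFY2 lies under 1 CPM in every library.

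**Figure D2:**
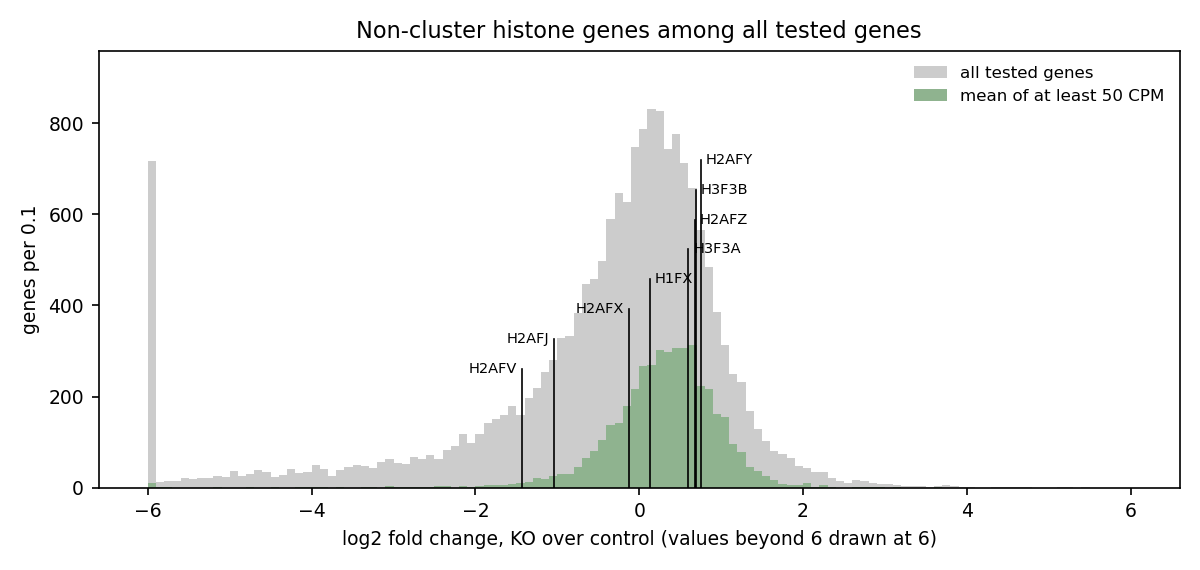
Distribution of the log2 fold change (KO over control) of the 17885 tested genes (grey) and of the 4377 that averaged 50 CPM or more (green), in bins of 0.1, with values beyond 6 in size drawn at 6; vertical lines mark the 8 tested replacement histone genes. They run from -1.43 for H2AFV to 0.75 for H2AFY, and H2AFV lies in the lower tail of the genes that averaged 50 CPM or more.

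H2A.Z is an H2A variant found at the nucleosomes flanking transcription start sites, and it is encoded by H2AFZ (H2A.Z.1) and H2AFV (H2A.Z.2), whose proteins are near-identical. The coding sequences of the 2 genes matched at 80.4% of 387 bases. H2AFZ (chromosome 4, 99948086 to 99950388, minus strand, GRCh38) had 317 and 316 CPM in the KO libraries, against 195 and 199 CPM in the control libraries. It rose 1.61-fold (log2 fold change 0.68, SE 0.03, adjusted p = 1.7e-18). H2AFV (chromosome 7, 44826791 to 44848083, minus strand) had 84.9 and 85.5 CPM in the KO libraries, against 231 and 229 CPM in the control libraries. It was 2.7-fold lower in KO (log2 fold change -1.43, SE 0.03, adjusted p = 8.92e-25). The 2 genes thus moved in opposite directions, each by far more than its replicates differed. Of the 4377 tested genes that averaged 50 CPM or more, 3.95% were called and at least 2-fold lower, and H2AFV is one of those 173 genes. The log2 fold changes of H2AFZ and H2AFV differed by 2.12 (SE 0.04, taking the errors of the 2 genes as independent).

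The share of H2AFZ in the pair was higher in KO. Divided by transcript length (CPM per kilobase of the principal transcript in GENCODE release 29), H2AFZ made up 74.1% and 73.9% of the pair in the KO libraries and 39.3% and 40.0% in the control libraries. The share differed by 34.4 percentage points between groups, against an SD of 0.139 in KO and 0.524 in control (n = 2 each). An exact two-sided permutation test over libraries gave p = 0.33, the smallest that 2 against 2 libraries allow. The sum of the pair's counts moved far less, at 401 CPM in each KO library and 426 and 428 CPM in the control libraries. Whether the pair's summed level per length was lower or higher in KO depends on the transcript assumed. With the principal transcripts (979 bases for H2AFZ, 752 bases for H2AFV) it was 436 CPM per kilobase in KO and 507 in control. With the longest coding transcript of H2AFV (3804 bases) it was 345 in KO and 261 in control. With that transcript H2AFZ made up most of the pair in both groups (93.5% in KO and 76.9% in control), so which of the genes led in control depends on the length assumed. The share of H2AFZ was higher in KO on each basis, a direction that a fixed length for each gene cannot change.

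**Figure D3:**
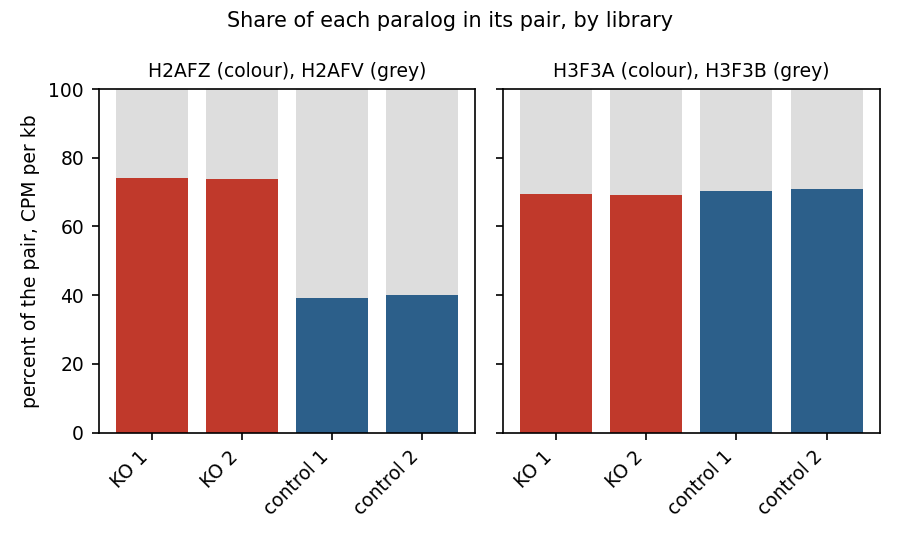
Share of each gene in its paralog pair per library, as a percent of the pair's CPM per kilobase; the coloured part is the first-named gene (red in KO, blue in control libraries) and the grey part the other gene. H2AFZ holds about 74.0% of its pair in KO and 39.6% in control, whereas H3F3A holds 69.3% of its pair in KO and 70.6% in control.

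The promoters of H2AFZ and H2AFV are shown because the genes encode near-identical proteins and moved oppositely. Windows of 250 bases up to the RefSeq transcription start (GRCh38.p14) were searched on both strands for the CCAAT box (CCAAT), the TATA box (TATAAA), the GC box (GGGCGG), the octamer (ATTTGCAT) and the cAMP response element (TGACGTCA), and capitals mark matches, none of which overlapped a match to another motif. All 9 genes had an entry, with 13 windows. The H2AFZ window is chr4:99950276-99950525 (minus strand) and the H2AFV window is chr7:44848088-44848337 (minus strand), each written 5′ to 3′.
H2AFZ: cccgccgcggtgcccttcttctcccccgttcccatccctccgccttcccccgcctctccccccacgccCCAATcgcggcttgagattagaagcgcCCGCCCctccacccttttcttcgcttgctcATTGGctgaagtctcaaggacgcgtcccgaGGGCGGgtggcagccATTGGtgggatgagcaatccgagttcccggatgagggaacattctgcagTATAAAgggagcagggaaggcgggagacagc
H2AFV: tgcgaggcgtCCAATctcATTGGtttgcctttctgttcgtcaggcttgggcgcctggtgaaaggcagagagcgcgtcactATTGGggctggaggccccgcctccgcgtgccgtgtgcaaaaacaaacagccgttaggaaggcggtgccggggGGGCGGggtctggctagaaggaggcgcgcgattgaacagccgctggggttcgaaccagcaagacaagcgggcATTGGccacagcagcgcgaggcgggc
The H2AFZ window held 3 CCAAT, 1 TATAAA and 2 GGGCGG matches. The H2AFV window held 4 CCAAT and 1 GGGCGG matches and no TATAAA in these letters. A CCAAT match was present in 9 of the 13 windows, against 32.0% of all 35116 RefSeq windows of this length. TATAAA was in 4 of the 13 windows, those of H2AFZ, H2AFX, H3F3B and H1FX, against 10.7% of all windows. GGGCGG was in 7 of 13 windows (42.6% of all windows), ATTTGCAT in 1 (1.63% of all) and TGACGTCA in 0 (1.65% of all). The windows are not all separate promoters, since H3F3A and H2AFY have more than 1 window and some of those of H3F3A overlap. By gene, CCAAT was in 7 of 9, TATAAA in 4 of 9 and GGGCGG in 4 of 9. These are matches of letters, not measured binding sites.

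H2AX, encoded by H2AFX (chromosome 11, 119093854 to 119095467, minus strand), is the H2A variant whose tail is phosphorylated around DNA double-strand breaks. It had 55.2 and 57.0 CPM in the KO libraries, against 58.7 and 63.4 CPM in the control libraries. The groups did not overlap, but the gap between the higher KO library and the lower control library was smaller than the difference between the control libraries. H2AFX fell slightly (log2 fold change -0.12, SE 0.05, adjusted p = 0.02), a size close to the shift of -0.13 in the median of all genes that upper-quartile scaling brings. The call was lost with DESeq2 (-0.12, adjusted p = 0.159), without KO replicate 1 (-0.09, adjusted p = 0.235), without KO replicate 2 (-0.14, adjusted p = 0.0624), without control replicate 2 (-0.08, adjusted p = 0.174), with no filter (-0.04, adjusted p = 0.525) and at a threshold of 0.01. It reached -0.26 with upper-quartile factors, so its size rests on the scaling.

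MacroH2A carries a large macro domain behind its H2A fold and is best known from the inactive X chromosome and silent genes. Its gene H2AFY (macroH2A1, chromosome 5, 135333900 to 135399914, minus strand) had 226 and 227 CPM in the KO libraries, against 139 and 130 CPM in the control libraries. It rose 1.69-fold (log2 fold change 0.75, SE 0.03, adjusted p = 4.72e-18), the largest increase among the 8 tested genes. H2AFY also lies where neighbouring genes rose, as described below. The second macroH2A gene, H2AFY2 (macroH2A2, chromosome 10, 70052796 to 70112280, plus strand), had 0 and 1 counts in the KO libraries, against 4 and 1 counts in the control libraries. Its ratio of KO to control was 0.115, with an exact 95% counting interval from 0.00244 to 1.03, so a difference was not detectable at this depth. Almost all macroH2A mRNA therefore came from H2AFY, at least 99.8% of the pair per length in every library. The splice forms of H2AFY, which differ in their macro domain, cannot be separated in a table of counts per gene.

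H2A.J, encoded by H2AFJ, differs from canonical H2A mainly at its C-terminus and is known to accumulate in senescent human fibroblasts. H2AFJ (chromosome 12, 14774383 to 14778002, plus strand) had 12.8 and 13.4 CPM in the KO libraries, against 27.5 and 26.3 CPM in the control libraries. It was 2.05-fold lower in KO (log2 fold change -1.04, SE 0.08, adjusted p = 1.35e-12). Its level in KO thus lay well under the lower control library. The promoter of H2AFJ, the other gene that fell at least 2-fold, is shown beside that of H2AFV for that reason; the window is chr12:14774155-14774404 (plus strand), with capitals as above.
H2AFJ: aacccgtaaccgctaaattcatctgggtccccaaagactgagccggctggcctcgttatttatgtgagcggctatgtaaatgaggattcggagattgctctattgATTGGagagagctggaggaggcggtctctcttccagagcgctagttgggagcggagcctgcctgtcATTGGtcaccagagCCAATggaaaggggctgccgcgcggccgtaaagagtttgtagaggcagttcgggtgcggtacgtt
It held 3 CCAAT matches and no match to the other motifs searched.

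H3.3, the replacement form of histone H3 that marks active genes, enhancers and telomeres, is encoded as the same protein by H3F3A and H3F3B. Their coding sequences matched at 78.6% of 411 bases, so the 2 mRNAs can be told apart. H3F3A (chromosome 1, 226061851 to 226072001, plus strand) had 317 CPM in each KO library, against 201 and 218 CPM in the control libraries. It rose 1.51-fold (log2 fold change 0.60, SE 0.03, adjusted p = 2.74e-15). H3F3B (chromosome 17, 75776434 to 75785893, minus strand) had 290 and 291 CPM in the KO libraries, against 176 and 184 CPM in the control libraries. It rose 1.61-fold (log2 fold change 0.69, SE 0.03, adjusted p = 3.67e-18). Unlike the H2A.Z genes, the H3.3 genes rose by nearly the same factor, and their log2 fold changes differed by -0.09 (SE 0.04). H3F3A made up 69.3% and 69.2% of the pair per length in the KO libraries and 70.2% and 71.0% in the control libraries (exact permutation p = 0.33, the smallest possible). The summed level of the pair was 350 CPM per kilobase in KO and 227 ± 10.8 (SD, n = 2) in control. The promoter of H3F3B is shown as that of a gene that rose, at chr17:75779780-75780029 (minus strand).
H3F3B: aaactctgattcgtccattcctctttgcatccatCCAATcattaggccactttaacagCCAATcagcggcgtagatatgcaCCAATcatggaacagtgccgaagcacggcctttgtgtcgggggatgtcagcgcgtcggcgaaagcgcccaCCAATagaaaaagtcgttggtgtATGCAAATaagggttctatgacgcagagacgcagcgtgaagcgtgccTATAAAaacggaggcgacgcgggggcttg
It held 4 CCAAT matches, 1 TATAAA match and the only ATTTGCAT match in the 13 windows, which reads ATGCAAAT on this strand.

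Linker histones compact the fibre between nucleosomes. H1FX (H1.X, chromosome 3, 129314771 to 129316277, minus strand) had 224 and 234 CPM in the KO libraries, against 209 CPM in each control library. It rose by a small amount (log2 fold change 0.13, SE 0.03, adjusted p = 2.46e-04). With upper-quartile factors the change was 0.00 (adjusted p = 0.991). With the KO counts thinned to the control depth it was 0.07 (adjusted p = 0.0521), and with no filter it was 0.22. The call thus depends on the processing, and the cause was not tested. Among the 6 linker histone genes of the cluster, 3 were tested. HIST1H1C (H1.2), which has a polyadenylated form, fell to 40.0 ± 0.790 CPM in KO, against 122 ± 1.09 CPM in control (SD, n = 2 each; log2 fold change -1.62, SE 0.04, adjusted p = 1.7e-23). HIST1H1D had 0.585 CPM in KO and 0.762 CPM in control (log2 fold change -0.36, SE 0.45), and HIST1H1E had 0.929 CPM in KO and 0.861 CPM in control (0.10, SE 0.38), neither past the threshold. Cluster mRNAs that lack a poly(A) tail are not measured reliably here.

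The order of the genes by level per length differed between groups, on the assumption that the principal transcript was the one expressed. In KO the order was H2AFZ (323 CPM per kilobase), H3F3A (242), H1FX (152), H2AFV (113), H3F3B (107), H2AFY (81.1), H2AFX (34.8) and H2AFJ (20.3), with H2AFY2 last. In control the order was H2AFV (306 CPM per kilobase), H2AFZ (201), H3F3A (160), H1FX (139), H3F3B (66.6), H2AFY (48.1), H2AFJ (41.8) and H2AFX (37.8), again with H2AFY2 last. No neighbours in either order overlapped between their libraries. With the longest coding transcript in place of the principal one, H2AFV dropped to 22.4 CPM per kilobase in KO and 60.5 in control, and H2AFZ led in both groups. H3F3A dropped to 170 in KO and 112 in control, which in control placed it below H1FX (139).

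Reads that also match other genes limit these values. Of the windows of 31 bases along the principal transcript, 29.8% in H3F3A, 25.2% in H2AFY, 23.5% in H2AFZ, 21.1% in H2AFV, 19.6% in H1FX, 14.1% in H3F3B, 3.91% in H2AFX and 3.09% in H2AFJ also occurred in a transcript of another gene, on either strand, and none did in H2AFY2. The genes that shared at least 5% of the windows of H3F3A, H2AFV, H3F3B, H1FX, H2AFY or H2AFZ had at most 139 counts in any library, whereas H2AFX and H2AFJ shared windows with each other and with H2A genes of the clusters. The pseudogene H3F3AP4, with the largest overlap with H3F3A, had 139 and 122 counts in the KO libraries against 52 and 61 in the control libraries, and H3F3A had 11135 and 11696 against 3890 and 4832. H2AFVP1 had 11 and 12 counts in the KO libraries and 12 and 10 in the control libraries, against at least 2980 for H2AFV. H3F3C, which shares 14.1% of the windows of H3F3B, was at 0 in all libraries. H1FX-AS1 overlaps H1FX on the opposite strand over 345 exonic bases and had 118 and 135 counts in the KO and 62 and 94 in the control libraries, against at least 4040 for H1FX. H2AFY overlaps 2 antisense genes, C5orf66 (70 and 78 counts in KO, 40 and 60 in control) and AC026691.1 (36 and 29 in KO, 20 and 18 in control). Whether the counting used strand is not given in the sources used here. Antisense reads therefore cannot be told apart, but these genes held few counts beside their partners. H3F3B overlaps UNK on the opposite strand over 214 exonic bases (648 and 719 UNK counts in KO, 316 and 443 in control).

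The position of the genes was described with the 20 genes on either side that had a mean of at least 10 CPM. All 9537 such genes had a median of 0.19. The 40 neighbours of H2AFY (chromosome 5, 132692628 to 140043299) had a median of 0.89, and 38 of them lay above the overall median. The value of H2AFY (0.75) was below the median of its neighbours but inside their quartiles (0.48 to 1.2). The neighbours of H2AFV (chromosome 7, 42932200 to 56063989) had a median of -0.57 and those of H2AFJ (chromosome 12, 8788257 to 27066343) also -0.57, with 7 and 8 of 40 above the overall median. H2AFV fell further (-1.43) than the lower quartile of its neighbours (-1.12), whereas H2AFJ (-1.04) stayed inside the quartiles of its own (-1.22 to 0.03). H3F3B had neighbours with a median of 0.58. For H2AFZ (neighbours 0.24), H3F3A (0.21) and H2AFX (0.33) the surroundings lay close to the overall median. H2AFZ (0.68) lay above the quartiles of its neighbours (-0.27 to 0.50). H1FX had neighbours with a median of -0.02. Across the 8 tested genes, the fold change and the median of the neighbours correlated at r = 0.88 (Spearman's rho 0.85), a description over 8 genes of the same 4 libraries with no test. Of the 8, 7 lay on the same side of the overall median as their neighbours, with H2AFX as the exception. That count includes near ties. The neighbours of H3F3A and H2AFZ had 20 and 21 of 40 above the overall median, and H1FX itself (0.13) lay close to it.

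**Figure D4:**
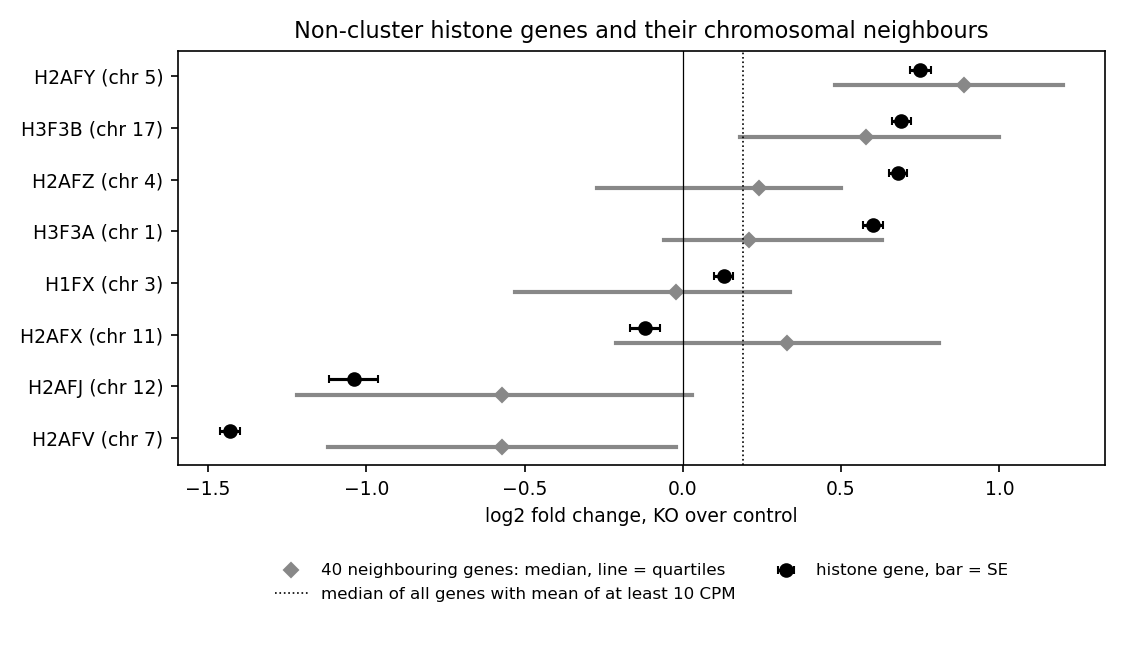
Log2 fold change (KO over control) of the 8 tested genes (black, bar = SE) with the median of their 40 neighbouring genes (grey diamond, line = quartiles); the dotted line is the median of the 9537 genes averaging 10 CPM or more (0.19). H2AFV and H2AFJ sit in regions that were lower in KO and H2AFY in one that was higher, while H2AFZ and H2AFV lie outside the quartiles of their neighbours.

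Genes that place, modify or read the variants were described in 6 lists of 74 genes in all, each of which was tested. Their median change was 0.26 on the log2 scale, and 44 were called higher and 20 lower. The share that rose, read against 36.4% of all tested genes and 67.6% of those that averaged 50 CPM or more, is a description. Among 23 genes of the SRCAP, TIP60-p400 and INO80 remodellers and ANP32E, which place or remove H2A.Z, 14 rose and 6 fell (median 0.32), and 3 fell when control replicate 1 was left out. ANP32E, the chaperone that removes H2A.Z from nucleosomes, was 279 ± 0.0198 CPM in KO and 115 ± 0.733 CPM in control (log2 fold change 1.28, SE 0.03, adjusted p = 5.32e-24). BRD8, a bromodomain subunit of TIP60-p400, rose to 112 ± 0.589 CPM, against 47.4 ± 1.88 CPM in control. RUVBL2, an ATPase shared by the 3 remodellers, rose to 128 ± 0.213 CPM, against 59.0 ± 0.109 CPM in control. TRRAP, the scaffold of TIP60-p400, rose to 800 ± 15.7 CPM, against 496 ± 20.1 CPM in control. Other genes of this list fell, MBTD1 with a log2 fold change of -1.07 (SE 0.05), EPC1 with -0.69 (SE 0.06) and KAT5 with -0.62 (SE 0.05). Of the large ATPases of the 3 remodellers, INO80 fell with a log2 fold change of -0.19 (SE 0.05, adjusted p = 0.0021), a call lost without control replicate 1 (-0.10, adjusted p = 0.0845) and a size of -0.31 without control replicate 2. The other ATPases lay closer to 0, EP400 with a log2 fold change of 0.11 (SE 0.03, adjusted p = 0.00284) and SRCAP with 0.03 (SE 0.03, adjusted p = 0.445), and with upper-quartile factors EP400 was at -0.02 and SRCAP at -0.11. EP400 also lost its call with the stricter filter, and SRCAP gained one with no filter.

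Of 8 genes that place H3.3, 3 rose and 4 fell (median -0.04). ASF1A, which hands H3 to the HIRA complex, was 113 ± 3.68 CPM in KO and 54.2 ± 1.31 CPM in control (log2 fold change 1.05, SE 0.04, adjusted p = 5.32e-19), and HIRA was 107 ± 0.348 CPM in KO and 53.6 ± 2.09 CPM in control (0.99, SE 0.04, adjusted p = 1.95e-18). CABIN1 of the HIRA complex and DAXX, which places H3.3 at heterochromatin with ATRX, each fell with a log2 fold change of -0.37. Of 15 genes around H2AX phosphorylation, 8 rose and 5 fell (median 0.10). The kinase genes PRKDC (1336 ± 14.7 CPM in KO, 867 ± 27.5 CPM in control) and ATR (156 ± 4.48 CPM in KO, 87.1 ± 0.827 CPM in control) rose. PPM1D, a phosphatase that acts on phosphorylated H2AX, rose to 41.1 ± 0.229 CPM, against 21.2 ± 0.0787 CPM in control. RNF168, the ubiquitin ligase that acts downstream of it, fell to 23.4 ± 1.16 CPM, against 45.2 ± 2.37 CPM in control.

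Of 7 partners of macroH2A, 4 rose and 1 fell (median 0.31), and none fell without KO replicate 1. PARP1, whose activity macroH2A1 curbs, was 431 ± 3.53 CPM in KO and 291 ± 1.78 CPM in control (log2 fold change 0.57, SE 0.03, adjusted p = 2.4e-17). CHD1L, a remodeller with a macro domain, had a log2 fold change of 0.79 (SE 0.05), the remodeller HELLS 0.65 (SE 0.06) and the ubiquitin ligase scaffold CUL3 0.31 (SE 0.04), all past the threshold. Of 18 general histone chaperones, 13 rose and 4 fell (median 0.34). PTMA, a partner of linker histone H1, was 1625 ± 9.08 CPM in KO and 774 ± 2.75 CPM in control (log2 fold change 1.07, SE 0.02, adjusted p = 2.15e-25). NPM1 rose to 1837 ± 4.63 CPM, against 945 ± 9.74 CPM in control, RBBP4 to 394 ± 1.43 CPM, against 186 ± 3.11 CPM in control, and NASP, a chaperone of H3 and H1, to 134 ± 1.02 CPM, against 60.2 ± 1.52 CPM in control. In contrast, NAP1L1, an H2A-H2B chaperone, and SSRP1, a FACT subunit, fell with log2 fold changes of -0.39 and -0.20. NAP1L4 and SUPT16H of the same list had log2 fold changes of 0.17 and 0.36. The centromeric H3 variant CENPA was 17.6 ± 0.703 CPM in KO and 15.0 ± 0.881 CPM in control (0.23, SE 0.09, adjusted p = 0.0172), a call lost with upper-quartile factors, the stricter filter, DESeq2, without KO replicate 2, without control replicate 2, at a threshold of 0.01 and with thinned KO counts. Its chaperone HJURP rose to 85.8 ± 1.18 CPM, against 29.9 ± 1.15 CPM in control (1.52, SE 0.05, adjusted p = 4.7e-21). Of the 5 genes of that list, 3 rose (1 without KO replicate 2), and MIS18A had 0.22 (SE 0.08, adjusted p = 0.0162), a call lost under 8 of 14 alternatives. Of 16 proliferation genes, 12 were higher and 3 lower (median 0.63), with 1 lower under no filter. Of tested genes averaging 50 CPM or more, 67.6% were called higher and 23.2% lower, and of all tested genes 36.4% and 39.8%. CCNB1 rose most (262 ± 5.53 CPM in KO and 34.9 ± 0.721 CPM in control). RRM2 (log2 fold change 1.94), PLK1 (1.71) and MCM6 (1.2) also rose. MCM7 (log2 fold change -0.52), TYMS (-0.16) and MCM2 (-0.12) fell. The part of these genes in the levels of the variants was not tested.

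**Figure D5:**
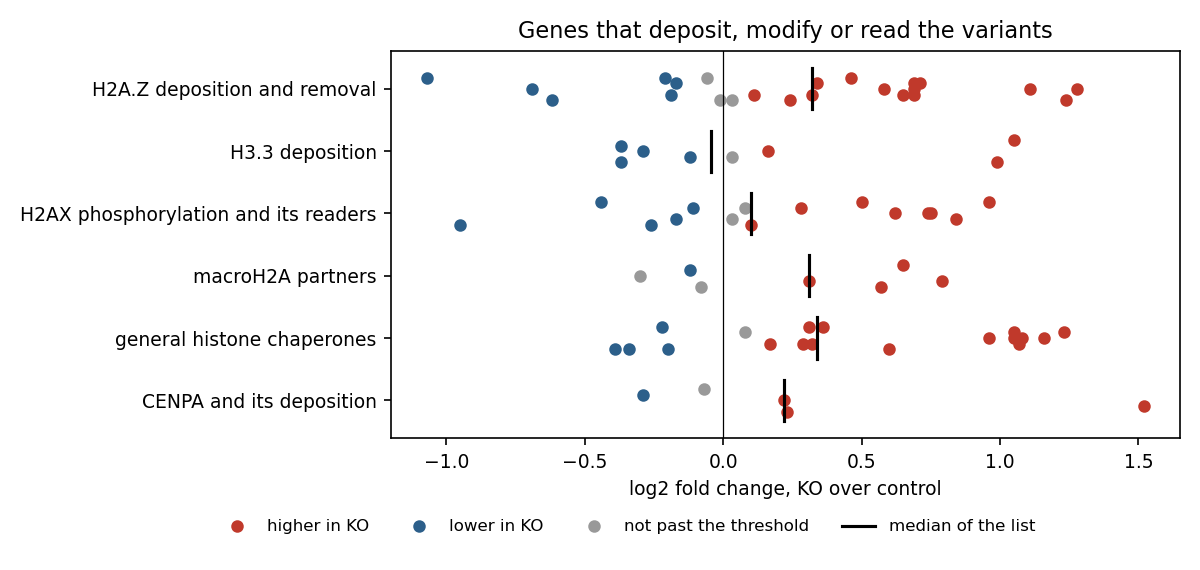
Log2 fold change (KO over control) of the tested genes of 6 lists, 1 point per gene, spread vertically for legibility; red points rose, blue points fell, grey points did not pass the threshold, and the black bar is the median of the list. Medians run from -0.04 for H3.3 deposition to 0.34 for general histone chaperones, and every list but that of macroH2A partners and CENPA deposition holds at least 4 genes that fell.

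The genes with the profile closest to the most clearly changed gene in each direction were found by the Euclidean distance of centred log2(CPM + 0.5) over the 4 libraries, against 9536 others averaging 10 CPM or more. Closest to H2AFZ were MTPAP (distance 0.0129), BUB3 (0.0133) and ETV3 (0.0134), with log2 fold changes of 0.68, 0.69 and 0.70. Closest to H2AFV were MTA1 (0.00956), MZF1 (0.0142) and ZNF529 (0.0296), with log2 fold changes of -1.44, -1.48 and -1.51. With 4 libraries in 2 groups, such a distance mainly reads the size of the group difference.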

How the data were processed

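Poly(A) RNA-seq libraries of NCI-H929 cells (2 KO, 2 control) were grouped by their titles. The deposited table holds estimated counts for each gene, all whole numbers. The submitters' processing notes name Salmon 0.12 and GRCh38, and the sources used here give neither annotation nor strand setting. ERCC spike-in rows (92, at most 2 counts) were left out. Genes were filtered with filterByExpr (17885 tested), scaled with TMM (factors 0.909 and 0.906 in KO, 1.1 in each control library) and compared with edgeR 4.0.16 (glmQLFit with robust=TRUE, glmQLFTest, R 4.3.3) without covariates, with Benjamini-Hochberg adjustment and a threshold of 0.05. Log2 fold changes are KO over control, SE is the fold change over the root of F, and CPM uses the TMM factors. Replicates of a group were further apart than counting noise (chi-square over its degrees of freedom, 1.79 in KO and 2.43 in control) and were counted separately. Depth gives 3 counts a level of 0.0812 to 0.0854 CPM in KO and 0.135 to 0.155 CPM in control, and counting intervals cover counting error only. Per-length levels use the longest of the best-ranked APPRIS coding transcripts of GENCODE release 29. Promoters come from RefSeq (GRCh38.p14). Scripts were tested on simulated data. The replacement histone genes, BCL7A, up to 4 genes per list by smallest p, related rows with at least 10 counts and the closest profiles were named by rule. EP400, SRCAP, INO80, KRT8, KRT18, NAP1L1, SSRP1, H3F3C, H2AFB1, H2AFB2, UNK, C5orf66, AC026691.1 and the markers at 0 were named after their values were seen. So were MBTD1, EPC1, KAT5, SUPT16H, NAP1L4, MCM7, TYMS and MCM2, and the markers CSF1R, CD14, LYZ, CD3E and CD8A. One of the 10 genes and 1 gene of a list are not reported here. The genes and lists were chosen with earlier results of these data known. Alternatives were RLE and upper-quartile factors, no or a stricter filter (mean count 10, 1 CPM in 2 libraries), DESeq2 1.42.0, limma-voom 3.58.1, a replicate block, each library left out, no robust shrinkage, a threshold of 0.01 and thinned KO counts; the longest coding transcript was added after seeing the data.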

Additional observations from a re-analysis of the deposited data

How the results depend on the processing

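Over the 14 alternatives, H2AFZ, H2AFV, H2AFY, H2AFJ, H3F3A and H3F3B kept their direction and their call (H2AFV from -1.57 to -1.35, H2AFY from 0.62 to 0.84, H2AFZ from 0.55 to 0.77 on the log2 scale; largest adjusted p 7.5e-08, for H2AFJ). H2AFX lost its call under 6 alternatives and H1FX under 2, given with each gene; the cause was not tested. With 1 library left out, 5 of the 8 tested genes were higher and 2 to 3 lower, and the replicate block gave 5 and 3. Same-numbered libraries did not deviate together (r = -0.00894 across 17885 genes) and share only a number; under the block 6365 of all genes were higher and 6922 lower, against 6506 and 7123 without it. The lower count among H2A.Z genes was 3 to 6 with 1 library left out, with 3 without control replicate 1. Among macroH2A partners the lower count of 1 became 3 with upper-quartile factors and with the stricter filter, 2 with thinned KO counts, and 0 with no filter, with DESeq2 and without KO replicate 1 (0 to 1 over the left-out libraries). Among CENPA genes the higher count of 3 became 1 with upper-quartile factors, the stricter filter, DESeq2, a threshold of 0.01, thinned KO counts and without KO replicate 2 (1 to 2 over the left-out libraries). From counts alone, H3F3A made up 52.2% of its pair in KO and 53.8% in control, and H2AFZ 78.8% in KO and 46.1% in control. With the longest coding transcripts, H3F3A made up 61.3% in KO and 62.8% in control, and H2AFZ 93.5% in KO and 76.9% in control. Direction changed for genes near 0 or with few counts: with upper-quartile factors for EP400 (-0.02), SRCAP (-0.11) and HIST1H1E (-0.03), and for SRCAP also with the stricter filter (-0.03) and thinned KO counts (-0.01). With 1 library left out, the log2 fold change ran from -0.01 to 0.06 for SRCAP, from -0.27 to 0.11 for H1FX-AS1, from -1.41 to 0.30 for H3F3BP1, from -0.76 to 0.11 for HIST1H1D and from -0.03 to 0.24 for HIST1H1E, changing sign without control replicate 2 for SRCAP and H1FX-AS1, without KO replicate 2 for H3F3BP1 and without control replicate 1 for H3F3BP1, HIST1H1D and HIST1H1E. Depth limits H2AFY2, the pseudogenes and the testis variants.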

Other observations

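Of 11 other histone genes outside the clusters, 5 had no count in any library and 4 had at least 10 counts in all. One of the 4 is CENPA, described above, and the other 3 had low counts. H2AFB3, a short H2A variant (H2A.B) of the testis, had 9 and 11 counts in the KO libraries and 0 and 1 in the control libraries, a ratio of KO to control of 11.5 with an exact 95% counting interval from 1.84 to 478. H2AFB1 and H2AFB2, its near-identical copies, had 0 counts in KO, and 0 and 2 counts of H2AFB2 in control, so the split among the copies is uncertain. H2BFS had 1.84 ± 0.223 CPM in KO and 2.88 ± 0.826 CPM in control (SD, n = 2 each; log2 fold change -0.64, SE 0.24, adjusted p = 0.0183 by edgeR), a call lost with DESeq2, without KO replicate 2, without control replicate 1 (-0.33) and at a threshold of 0.01. H2BFM had 0.668 ± 0.103 CPM in KO and 1.07 ± 0.172 CPM in control (-0.67, SE 0.40, adjusted p = 0.126).

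Of 16 rows named as pseudogenes or antisense genes of the replacement histones, 5 had at least 10 counts. H3F3AP4 had a log2 fold change of 0.41 (SE 0.19, adjusted p = 0.0561), H1FX-AS1 of -0.09 (SE 0.19, adjusted p = 0.659), H2AFVP1 of -0.73 (SE 0.52, adjusted p = 0.204) and H3F3BP1 of -0.38 (SE 0.56, adjusted p = 0.54), none past the threshold. With no filter H3F3AP4 did pass it. H3F3AP6 had 7 and 3 counts in the KO libraries and 0 in the control libraries.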
